A study of Mus musculus with 18 samples.

Results

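A pair of sorted progenitor populations of control mouse bone marrow were compared gene by gene: haematopoietic stem cells (HSC) and the lymphoid-primed multipotent progenitors labelled MPP4. The members are the 3 HSC control and 4 MPP4 control libraries, 7 of the 18 libraries in the series, taken by their genotype and population labels. All 7 came from lineage-negative marrow progenitors of BALB/c mice labelled wild type (wt). The labels give no treatment, age or number of cells. The rest of the series holds 2 MPP1 control libraries and 9 libraries of the same populations labelled dnmt1-/-. The series text describes that allele as a missense, hypomorphic mutation of the maintenance DNA methyltransferase, so it is written as "mutant" here. Sorting was directly into a lysis and reaction buffer, with no step to extract RNA, and libraries were made with CEL-Seq2, which counts molecules by barcode at the 3′ end of transcripts. Which surface markers defined the sort is not stated in the labels.

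HSC sit at the top of blood formation: most divide rarely, and they renew themselves while feeding every blood lineage. MPP1 is the name of the multipotent progenitor nearest to them, and MPP4 is the progenitor with high surface Flt3, a receptor tyrosine kinase for the cytokine Flt3 ligand. MPP4 cells are known to give mainly lymphoid cells and also dendritic and myeloid cells, and to have lost most of their capacity to make platelets and red cells.

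HSC control 3 was the shallowest of these libraries, at 354642 counts in total, and MPP4 control 2 the deepest, at 1943562. The column headers carry an ID number. HSC control 1 shares its number with MPP4 control 1, HSC control 2 with MPP4 control 3, and HSC control 3 with MPP4 control 4. The number of MPP4 control 2 occurs in no HSC library, and that is also the one library here of batch B. Batches A, B and C follow the form of the column headers, which does not say what step of the work they reflect. Levels are in CPM: each count is divided by the effective size of its library (edgeR's TMM factors over all 18 libraries) and brought to one shared total. A pair of libraries stood apart. In HSC control 1, a list of 20 B cell genes summed to 38655 CPM, against 23.6 and 29.0 in the other HSC libraries and 435 to 3501 in MPP4. In MPP4 control 4, a list of 11 erythrocyte genes summed to 41932 CPM, against 357 to 866 in the other 6. The same library held 5462 CPM of 16 neutrophil genes, and 25.8% of its counts lay in 4 gene models (Gm10800, Gm10801, Gm21738, Gm42418). Counts that moved by more than 1.5 times without this pair, and calls of named genes that ended, are given beside the result.

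**Figure D1:**
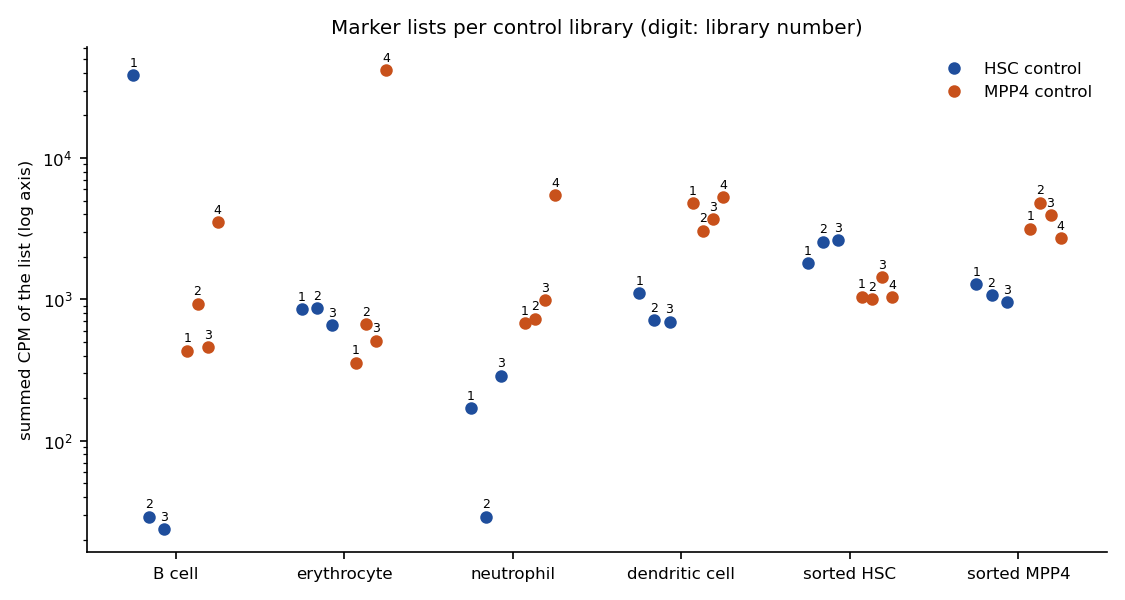
Summed CPM of 6 marker lists (log axis) in each of the 3 HSC and 4 MPP4 control libraries, one point per library, with its number above it. HSC control 1 is the high point of the B cell list (38655 CPM) and MPP4 control 4 that of the erythrocyte list (41932 CPM), while the sorted MPP4 and dendritic lists are higher in every MPP4 library than in every HSC library.

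The markers fixed for each population were checked first. A list of 12 genes known from sorted MPP4 cells summed to 954 to 1277 CPM in HSC and 2716 to 4827 in MPP4. A list of 12 genes known from HSC summed to 1804 to 2622 CPM in HSC and 1007 to 1434 in MPP4. Each list was thus higher in every library of its own population than in any library of the other. Kit is on both lists. They hold genes by which these populations are known, such as Flt3 and Slamf1, and were chosen with earlier results of these data known. This order is therefore a description and no independent test of the labels.

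Of 29717 genes in the tables, 10037 had enough counts to test, and 620 (6.18%) differed between MPP4 and HSC at an adjusted p under 0.05 in edgeR's quasi-likelihood test. In MPP4, 342 were higher (3.41% of the tested genes) and 278 were lower (2.77%). These 620 are the genes written of below as having risen, fallen or passed. Levels of 603 of them did not overlap between the groups, which held for 15.6% of all tested genes. Differences are given as log2 (MPP4 minus HSC) with the standard error derived from the test's F statistic. The median over all tested genes was 0.01. The 620 genes had a median size of 1.83 and a smallest of 0.79, with 139 genes above 2 and 131 below -2. With the ID number as a block, which leaves MPP4 control 2 without weight in the difference, 1096 genes passed (10.9%): 646 higher (6.44%) and 450 lower (4.48%). The fits shared 609 genes, which is 98.2% of the unblocked calls and 55.6% of the blocked ones. The count was 268 without HSC control 2, the deepest HSC library, and 401 without HSC control 3. Without both libraries that stood apart it was 609, of which 305 were higher and 304 lower, and 456 were among the 620. Within batch C alone (2 HSC and 2 MPP4 libraries) the count was 364. Some called genes named below were tested there and did not pass. They are Bcl2, Cbx7, Col4a1, Fen1, Gata1, H2-Eb1, Hoxb3, Mad2l1, Map1lc3a, Pf4, Ski, Slc2a3, Tek, Tyms, Xpc and Zbtb4. H2-Eb1 also lost its call with batch as a term (adjusted p = 0.099).

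Flt3 itself gave one of the smallest adjusted p-values. Its level was 39.5, 29.0 and 21.0 CPM in HSC controls 1 to 3 and 476, 535, 518 and 374 CPM in MPP4 controls 1 to 4. The ranges lie far apart, and the log2 difference was 3.94 ± 0.29 (adjusted p = 9.0e-07). The gene lies on the minus strand of chromosome 5, at 147330741 to 147400489 of GRCm38. Cd48, a surface protein absent from most HSC, rose by 2.87 ± 0.44 (adjusted p = 0.00093), from 7.87–26.4 CPM in HSC to 63.5–246 CPM in MPP4. Cd34, the sialomucin that marks most multipotent progenitors, rose by 1.59 ± 0.31 (adjusted p = 0.0037). Its adjusted p was 0.055 without HSC control 2. Slamf1, which encodes the HSC marker CD150, fell by 4.55 ± 0.72 on the log2 scale (adjusted p = 0.0022). It was at 26.4, 88.9 and 52.4 CPM in HSC and at 4.43, 0.936, 0 and 11.2 CPM in MPP4. Procr, the protein C receptor of the HSC surface, was even among the HSC libraries at 93.9, 92.5 and 102 CPM. In MPP4 it was at 36.1, 26.2, 16.7 and 7.47 CPM, a log2 difference of -2.03 ± 0.32 (adjusted p = 0.00097). In these bulk libraries, fewer cells with a transcript and less transcript per cell cannot be told apart.

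Kit and Ly6a encode surface proteins known from HSC and multipotent progenitors alike, and neither passed. Kit, the stem cell factor receptor, stood at 438 to 631 CPM in HSC and 232 to 440 in MPP4 (log2 -0.62 ± 0.25, adjusted p = 0.20), and its adjusted p was 0.0067 with the ID block. Ly6a, which encodes Sca-1, did not pass (adjusted p = 0.76). Its levels in MPP4 were 45.6, 168, 41.3 and 37.4 CPM, beside 72.5, 45.3 and 39.3 in HSC. The difference of 0.50 ± 0.53 took its sign from MPP4 control 2, and it was -0.33 without that library and -0.38 with the ID block.

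**Figure D2:**
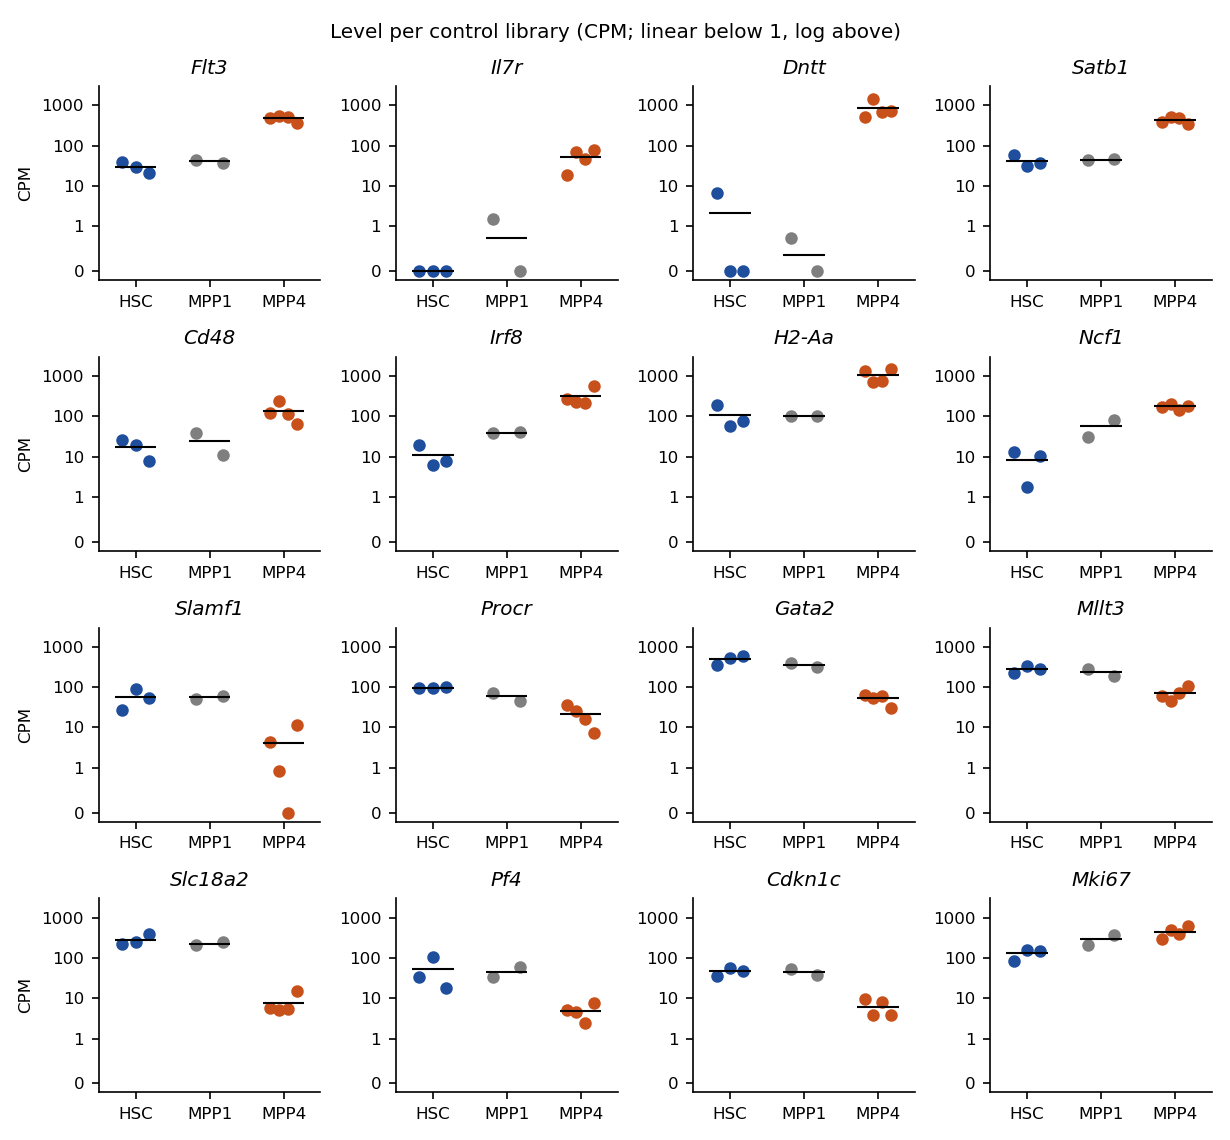
CPM of 16 genes in the control libraries (linear below 1 CPM, log above), one point per library, with the group mean as a bar: 3 HSC, 2 MPP1 and 4 MPP4 libraries, in order of their numbers. Flt3, Satb1 and Dntt in MPP1 lie near HSC level, as do Slc18a2 and Cdkn1c, while the mean of Mki67 in MPP1 (212 and 368 CPM) lies between those of HSC and MPP4.

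Genes of the lymphoid programme were among those that rose. Dntt encodes terminal deoxynucleotidyl transferase, which adds bases at antigen receptor joints. It had 6.59 CPM in HSC control 1 and 0 in the other HSC libraries, and 509, 1470, 691 and 736 CPM in MPP4. These are 4 counts against 5014 in all, a log2 difference of 8.63 ± 0.82 (adjusted p = 0.00028). Il7r, the interleukin-7 receptor subunit needed for lymphocyte development, had no count in any HSC library and 18.4, 67.8, 46.9 and 78.5 CPM in MPP4. Set against a floor of 3 counts over the HSC group, that is at least 33.8-fold higher. Both genes therefore had MPP4 levels above every HSC level. Rag1, a subunit of the recombinase that cuts antigen receptor genes, had 1 count in HSC and 176 in MPP4, a ratio of 70.2 (95% exact interval 12.4 to 2788, counting error only). Its call was lost without any one of the HSC libraries, and without the pair that stood apart.

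Of 30 tested lymphoid receptor and recombination genes, 15 rose and 3 fell (18 and 4 with the block), and the list's median was 1.81. Il12a, a subunit of the cytokine interleukin-12, rose by 2.78 ± 0.45 (adjusted p = 0.0021). Its levels were 19.8, 36.3 and 18.4 CPM in HSC and 120, 357, 149 and 101 in MPP4. Cd53, a leukocyte tetraspanin, rose by 3.90 ± 0.49 and Itgal, the alpha chain of the LFA-1 adhesion receptor, by 2.77 ± 0.41 (adjusted p = 0.00044 and 0.00053). The gut and thymus homing receptor gene Ccr9 had 2 counts in HSC and 300 in MPP4, and its call was lost without any one HSC library and without the pair. Of the B cell markers, 7 of 20 had no count in any HSC control, and Iglv1 had none in any MPP4 control. The defining gene Cd79a was at 0 in HSC, also in HSC control 1, whose summed B cell genes were high. Without both libraries that stood apart, 13 genes of the lymphoid receptor list rose and 1 fell. The 3 that fell were 0 without HSC control 3 and 1 without HSC control 1 or MPP4 control 1.

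Of 20 tested lymphoid transcription factors, 4 rose and 1 fell (9 and 1 with the block), and the median was 0.46. Satb1, a chromatin organiser of the early lymphoid programme, stood at 59.3, 31.7 and 36.7 CPM in HSC and 384, 521, 497 and 351 in MPP4 (log2 3.34 ± 0.29, adjusted p = 5.0e-06). No HSC value came near the lowest MPP4 value. Notch1, the receptor that directs T cell fate, rose by 1.91 ± 0.28 and Id2, an inhibitor of E proteins, by 3.05 ± 0.50 (adjusted p = 0.00053 and 0.0012). Ikzf1, which encodes the lymphoid regulator Ikaros, was already high in HSC at 186 to 210 CPM and reached 299 to 447 CPM in MPP4. Its log2 difference of 0.93 ± 0.24 (adjusted p = 0.024) lost its call without any one HSC library, without MPP4 control 3 or without the pair. Gata3, a T cell and innate lymphoid factor that HSC also express, went the other way. It had 51.1, 58.9 and 91.8 CPM in HSC and 13.3, 8.42, 19.9 and 18.7 in MPP4 (log2 -2.27 ± 0.37, adjusted p = 0.0012).

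MHC class II genes, whose products present peptides to T cells on B, dendritic and other cells, all lay above 0: 9 of 9 tested had a positive difference. This was so with TMM scaling, with DESeq2's size factors and with the block. The median was 3.05, and 5 of the 9 passed (7 with the block). H2-Aa, the alpha chain of I-A, was at 193, 57.1 and 78.7 CPM in HSC and at 1302, 702, 738 and 1483 in MPP4 (log2 3.26 ± 0.47, adjusted p = 0.0012). H2-Ab1, its beta chain, and H2-Eb1, the beta chain of I-E, rose by 2.90 ± 0.45 and 4.26 ± 0.64 (adjusted p = 0.002 and 0.0042). The highest HSC values of H2-Aa and H2-Ab1 were those of HSC control 1, the library with the B cell transcripts. H2-DMb1, part of the peptide loading catalyst, had 2 counts in HSC and 209 in MPP4 (ratio 41.7, interval 11.4 to 346). H2-Ob, part of that catalyst's inhibitor, had 1 and 136 counts (ratio 54.2, interval 9.57 to 2158). Of 23 class I presentation genes, edgeR called 0, with 1 at an unadjusted p under 0.05 and a median of 0.06. DESeq2 called 0, and edgeR with the block called 2, both lower.

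Promoter stretches of 3 called class II genes are shown because each carries the inverted CCAAT box (GATTGG, in capitals), the Y box of class II promoters. They are 90 bases around the motif, all within 250 bases upstream of the first gene start listed, from RefSeq on GRCm38.p6, 5′ to 3′ along the gene. The stretch of H2-DMb1 is chr17:34153087-34153176 (plus strand), that of H2-Ob chr17:34238805-34238894 (plus) and that of H2-Aa chr17:34287825-34287914 (minus).
H2-DMb1: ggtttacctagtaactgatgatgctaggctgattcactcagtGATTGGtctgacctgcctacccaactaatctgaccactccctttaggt
H2-Ob: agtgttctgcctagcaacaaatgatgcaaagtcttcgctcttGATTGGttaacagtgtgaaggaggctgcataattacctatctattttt
H2-Aa: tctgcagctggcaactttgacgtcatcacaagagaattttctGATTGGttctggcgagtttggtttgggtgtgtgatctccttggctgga
Searching both strands of 300 bases around each start (250 before, 50 after), GATTGG occurred in 4 of 4 called class II genes with a sequence. It occurred in 5 of 6 tested class II genes and in 1642 of 7637 tested genes (21.5%). The letters are not particular to class II. They were also in 26 of 50 tested S phase genes (52%) and 29 of 61 tested mitosis genes (47.5%). The motif contains CCAAT on its other strand, and the match is a description of letters only.

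Genes of dendritic and myeloid cells rose alongside. Of 14 tested dendritic markers, 8 rose and none fell (4 and 0 without HSC control 2; median 3.6). The summed level of that list was 697 to 1112 CPM in HSC and 3058 to 5264 in MPP4. All of its 17 genes had a count in some MPP4 control, while Cd209a, Cox6a2 and Xcr1 were at 0 in every HSC control. The list shares Flt3 and class II genes with those above, and the part of a few dendritic cells in these levels was not tested. Irf8, the transcription factor of dendritic and monocyte fate, was at 19.8, 6.35 and 7.87 CPM in HSC and 266, 221, 215 and 557 in MPP4 (log2 4.80 ± 0.54, adjusted p = 0.00028). Clec9a, a receptor of cross-presenting dendritic cells, had 1 count in HSC and 117 in MPP4, and its call was lost without HSC control 2.

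Of 23 tested myeloid receptors and adaptors, 10 rose and none fell (14 and 0 with the block; 6 rose without HSC control 2 and 6 without MPP4 control 1; median 1.16). Tyrobp, the DAP12 adaptor of activating receptors, had 3.29, 1.81 and 5.24 CPM in HSC and 79.1, 78.6, 57.2 and 48.6 in MPP4 (log2 4.43 ± 0.45, adjusted p = 2.4e-05). Cd33, an inhibitory sialic acid receptor, had 3 counts in HSC and 364 in MPP4 (ratio 48.4, interval 16.4 to 236). Csf1r, the macrophage growth factor receptor, stayed low in MPP4 at 13.3, 19.6, 15.1 and 14.9 CPM, with 1 count in HSC. Its call was lost without HSC control 2. Ncf1, a cytosolic subunit of the phagocyte NADPH oxidase, rose from 13.2, 1.81 and 10.49 CPM to 171, 207, 146 and 183 CPM (log2 4.57 ± 0.44, adjusted p = 1.7e-05).

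A list of myeloid granule genes was split. Nkg7, Cst7, Plac8, Serpinb1a, Clec12a and Prss57 rose (6 of 17, none fell; median 0.36). Not all members of this list encode granule contents, and Clec12a is also on the list of myeloid receptors and adaptors. Plac8, a small protein of myeloid and lymphoid progenitors, was the most abundant, with 133, 23.6 and 62.9 CPM in HSC and 847, 1106, 630 and 594 in MPP4. Clec12a did not pass over all 18 libraries with the ID block (adjusted p = 0.065), and Prss57 lost its call without HSC control 2 or 3 or MPP4 control 1 or 2. Mpo and Elane, which encode enzymes of the primary granules, did not pass and varied widely. Mpo, myeloperoxidase, had 84.0, 5.44 and 170 CPM in HSC and 600, 709, 967 and 314 in MPP4 (adjusted p = 0.25). It passed without HSC control 2, at 2.31 ± 0.45 (adjusted p = 0.012). Elane, neutrophil elastase, had 46.1, 0 and 83.9 CPM in HSC and 49.4, 3.27, 0.795 and 0 in MPP4 (adjusted p = 0.83). Both were higher in the MPP1 control libraries than in HSC, at 875 and 646 CPM for Mpo and 690 and 122 CPM for Elane. Neutrophil markers summed to 29.0 to 288 CPM in HSC and 676 to 987 in MPP4 controls 1 to 3, with 5462 in MPP4 control 4. Only 3 of the 16 had enough counts to test, and none passed (1 positive and 2 negative differences, median -0.89). Monocyte markers summed to 126 to 184 CPM in HSC and 223 to 478 in MPP4, with Cd14, Marco and Ms4a7 at 0 in every HSC control. Marco was also at 0 in every MPP4 control. Of the neutrophil markers, Camp, Lcn2, Ly6g and Mmp9 were at 0 in every HSC control. The summed effective size was 2091310 for the HSC libraries and 5244030 for MPP4, so at an equal level a 0 is likelier in HSC. The part of such cells in the myeloid lists was not tested. Of 16 myeloid transcription factors, Irf8 and Id2 rose, and the median was -0.08. Without the pair that stood apart 1 of them fell.

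Genes of the stem cell state fell. Of 28 tested stem cell transcription factors, 12 fell and 1 rose (16 and 1 with the block; 7 fell without HSC control 2), and 26 of 28 had a negative difference. The list's median was -1.03. Gata2, which maintains HSC and serves early megakaryocyte and mast cell fates, was at 354, 517 and 579 CPM in HSC and 63.9, 54.7, 62.0 and 29.9 in MPP4. Its groups lie well apart (log2 -3.18 ± 0.26, adjusted p = 2.8e-06). Mllt3, a chromatin reader linked to HSC maintenance, fell by 2.11 ± 0.29 on the log2 scale (adjusted p = 0.00035). Tal1 fell by 1.58 ± 0.26, Gfi1b by 2.19 ± 0.38 and Myct1, a target of Myc, by 1.74 ± 0.29 (adjusted p = 0.0013, 0.0017 and 0.0013). Hmga2, a chromatin protein of fetal and self-renewing HSC, was the one called member of the list that rose. Its levels were 64.2, 44.4 and 49.8 CPM in HSC and 147, 205, 219 and 127.02 in MPP4 (log2 1.71 ± 0.27, adjusted p = 0.0011).

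Mecom and Hlf, regulators known to mark the most potent HSC, remained expressed in MPP4. Mecom had 221, 375 and 642 CPM in HSC and 105, 44.0, 153 and 205 in MPP4 (log2 -1.77 ± 0.56, adjusted p = 0.14). With the ID block its difference was -1.33 with an adjusted p of 1.1e-07, and without the pair that stood apart -2.40 with an adjusted p of 0.020. Hlf had 451, 811 and 933 CPM in HSC and 376, 225, 656 and 501 in MPP4 (log2 -0.76 ± 0.35, adjusted p = 0.30; 0.092 with the block). In both genes HSC control 1 was the lowest HSC library, and within each shared ID number the HSC library was higher than the MPP4 library. Of 13 tested Hox genes and cofactors, 3 fell, Hoxb5 and Hoxb3 among them, and none rose (5 fell with the block; median -0.76). Without HSC control 2 none of the 3 passed, 1 gene fell without HSC control 3, MPP4 control 1 or MPP4 control 2, and 5 fell without the pair.

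Surface and secreted proteins of HSC followed the same direction: 16 of 28 fell and 2 rose (20 and 2 with the block; 7 fell without HSC control 2), with a median of -1.43. Pdzk1ip1, a small membrane protein used to label HSC, was at 216, 237 and 275 CPM in HSC and 23.4, 16.4, 24.6 and 29.9 in MPP4 (log2 -3.48 ± 0.28, adjusted p = 1.6e-06). Log2 differences were -3.32 ± 0.36 for Esam, an endothelial and HSC adhesion molecule, -2.98 ± 0.36 for Apoe, the lipid carrier, and -2.07 ± 0.27 for the tetraspanin Cd63 (adjusted p = 4.5e-05, 0.00012 and 0.00022). Tie1 and Tek, which encode the receptors TIE1 and TIE2 of angiopoietin signalling, had differences of -1.55 ± 0.25 and -3.37 ± 0.68 (adjusted p = 0.0012 and 0.0053). The call of Tek was lost without HSC control 2.

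The smallest adjusted p of all named genes that fell belonged to Slc18a2, the vesicular monoamine transporter, on chromosome 19 at 59260896 to 59296012 of GRCm38. It had 224, 248 and 383 CPM in HSC and 5.69, 5.15, 5.56 and 14.9 in MPP4 (log2 -5.55 ± 0.36, adjusted p = 2.6e-07). Every HSC value lay far above the highest MPP4 value. Grb10, an imprinted adaptor that damps insulin and growth factor receptors, had 137, 157 and 152 CPM in HSC and 12.7, 6.08, 7.95 and 7.47 in MPP4 (log2 -4.13 ± 0.31, adjusted p = 9.2e-07). Trib2, a pseudokinase, had 58 counts in HSC and 2 in MPP4, a ratio of 72.7 (interval 19.2 to 615). Cdkn1c, the imprinted cell cycle inhibitor p57 that keeps HSC quiescent, was at 34.6, 57.1 and 47.2 CPM in HSC and 9.49, 3.74, 7.95 and 3.74 in MPP4 (log2 -2.85 ± 0.41, adjusted p = 0.00041). Of 29 tested genes on a list of imprinted genes, Grb10, Cdkn1c and Igf1r fell and none rose, with a median of -0.44. Igf1r is not established as imprinted in the mouse, and its call was lost without HSC control 2 or 3.

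Megakaryocyte and platelet genes had the lowest median of the lists, -1.99: 11 of 20 fell and 1 rose (15 and 2 with the block; 5 fell without HSC control 2). Without the pair that stood apart 13 fell and none rose. Pf4, platelet factor 4, was at 32.9, 108 and 18.4 CPM in HSC and 5.06, 4.68, 2.38 and 7.47 in MPP4 (log2 -3.70 ± 0.55, adjusted p = 0.00088). It did not pass over all 18 libraries with the ID block (adjusted p = 0.14) or in batch C alone (0.060). Itga2b, the platelet integrin CD41, and Gng11, a G protein subunit, fell by 2.80 ± 0.40 and 2.36 ± 0.33 (adjusted p = 0.00044 and 0.00038).

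Of 24 tested erythroid genes, 9 fell and none rose (11 and 0 with the block), with a median of -1.53. Gata1, the master factor of red cells and megakaryocytes, was at 57.6, 24.5 and 26.2 CPM in HSC and 1.27, 2.34, 0 and 11.2 in MPP4 (log2 -4.14 ± 0.68, adjusted p = 0.0014). Car1, carbonic anhydrase 1 of early erythroid cells, was at 178, 80.7 and 65.6 CPM in HSC and 0.633, 2.34, 0 and 11.2 in MPP4 (log2 -5.91 ± 0.66, adjusted p = 0.00029). In both genes the highest MPP4 value was that of MPP4 control 4, the library with the erythrocyte transcripts. It also had the lowest effective size (267673), and the 11.2 CPM of Gata1 was 3 counts there. Slamf1, from outside this list, was at 11.2 CPM and 3 counts there too. A link to the erythrocyte transcripts was not tested. Without that library 12 erythroid genes fell, and without the pair that stood apart 1 rose. In the MPP1 controls Car1 was at 0 and 7.26 CPM and Gata1 at 13.4 and 14.5 CPM, below the HSC libraries. The part of committed erythroid or megakaryocyte cells within the HSC gate was not tested.

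**Figure D3:**
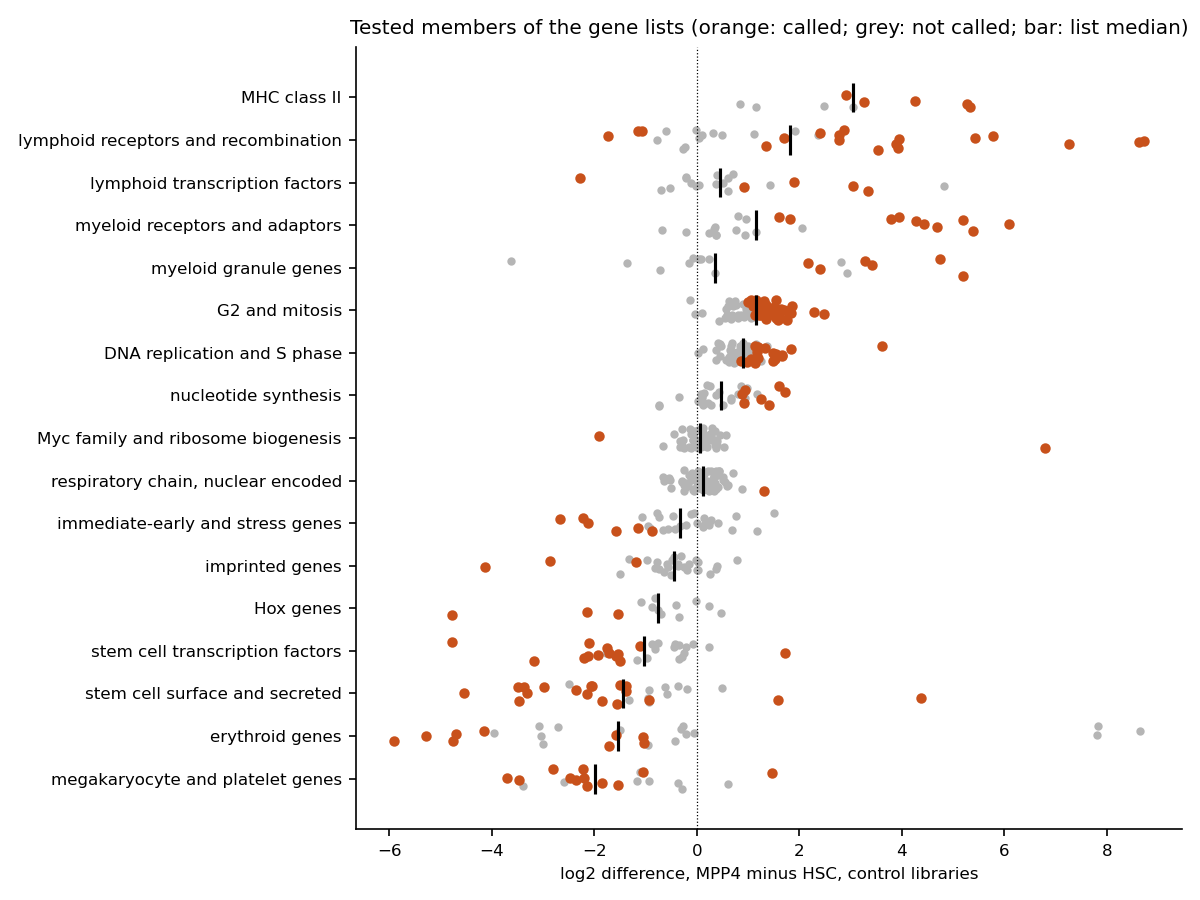
Log2 difference (MPP4 minus HSC) of each tested member of 17 gene lists in the control libraries: orange points passed at an adjusted p under 0.05, grey points did not, and the bar is the list's median. Medians run from 3.05 for MHC class II to -1.99 for megakaryocyte and platelet genes, and the S phase and G2 and mitosis lists form narrow clouds above 0.

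Nearly all tested genes of S phase and of mitosis had a positive difference, though fewer passed. All 64 tested genes of DNA replication and S phase had a positive difference with TMM scaling, with DESeq2's size factors and with the block. Their median was 0.90. Of these, 18 passed and 40 did with the block, but only 1 did without HSC control 1 and only 1 without HSC control 2. Leaving out MPP4 control 1 gave 11 and leaving out MPP4 control 2 gave 10. Without both libraries that stood apart, 8 passed. Fen1, the flap endonuclease of lagging strands, was at 54.4, 55.3 and 89.2 CPM in HSC and 156, 149, 133 and 149 in MPP4 (log2 1.14 ± 0.26, adjusted p = 0.013). Its groups did not overlap, but its call was lost without HSC control 1, HSC control 2 or the pair. Tyms, which makes thymidylate for DNA synthesis, was at 21.4, 23.6 and 26.2 CPM in HSC and 98.7, 87.0, 76.3 and 44.8 in MPP4 (log2 1.71 ± 0.31, adjusted p = 0.0022). Of 32 genes of nucleotide synthesis, 7 rose and none fell (11 and 1 with the block; 2 rose without HSC control 2, 4 without HSC control 1 and 4 without HSC control 3), with a median of 0.48.

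For G2 and mitosis, 72 of 74 tested genes had a positive difference with TMM or with DESeq2's size factors, with a median of 1.15. Of these, 35 rose and none fell; 56 rose with the block, 14 without HSC control 1, 13 without HSC control 2 and 15 without the pair that stood apart. Mki67, the proliferation antigen Ki-67, was at 82.4, 153 and 149 CPM in HSC and 287, 485, 382 and 613 in MPP4 (log2 1.75 ± 0.32, adjusted p = 0.0024). Cdk1, the kinase that starts mitosis, was at 59.3, 59.8 and 73.4 CPM in HSC and 185, 216, 141 and 157 in MPP4 (log2 1.43 ± 0.25, adjusted p = 0.0021). Neither gene overlapped between the groups. The spindle checkpoint kinase gene Ttk rose by 2.29 ± 0.39 and Mad2l1, the checkpoint protein MAD2, by 1.65 ± 0.31 (adjusted p = 0.0015 and 0.0032).

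Promoters of 4 called mitosis genes are shown because they carry the letters TTTGAA, the cell cycle homology element through which such genes are known to be repressed in resting cells. Capitals mark the copy nearest upstream of the gene start, in either orientation. Each stretch is 90 bases that hold this copy, all within 250 bases upstream of the first start listed by RefSeq on GRCm38.p6, 5′ to 3′ along the gene. That of Cdk1 is chr10:69352913-69353002 (minus strand), of Mki67 chr7:135716430-135716519 (minus), of Kif15 chr9:122950991-122951080 (plus) and of Cks1b chr3:89418292-89418381 (minus).
Cdk1: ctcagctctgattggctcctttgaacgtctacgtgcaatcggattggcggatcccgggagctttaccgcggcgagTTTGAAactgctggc
Mki67: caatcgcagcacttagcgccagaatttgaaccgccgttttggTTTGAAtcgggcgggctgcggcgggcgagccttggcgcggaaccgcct
Kif15: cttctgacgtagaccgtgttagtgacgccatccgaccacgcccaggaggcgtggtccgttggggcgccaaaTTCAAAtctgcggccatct
Cks1b: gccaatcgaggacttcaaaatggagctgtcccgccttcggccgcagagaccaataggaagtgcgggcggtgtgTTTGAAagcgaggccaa
On either strand of the 300 bases, TTTGAA occurred in 22 of 31 called mitosis genes with a sequence (71%) and in 42 of 61 tested ones. It occurred in 892 of 7637 tested genes (11.7%) and in 6 of 50 tested S phase genes (12%). The E2F-type letters GCGGGAA were in 21 of 50 tested S phase genes (42%), in 4 of 61 mitosis genes and in 699 of 7637 tested genes (9.15%). A second form, GGCGGGA, was in 40% of these S phase genes, 31.1% of the mitosis genes and 22.5% of the tested genes. Of the 10 S phase genes that passed and had a sequence, 2 held GCGGGAA and 3 held GGCGGGA. Among genes that fell, the GATA-type letters AGATAAG were in 11 of 198 promoters (5.56%), against 1.45% of the 7637. They were in 1 of 12 called stem cell surface genes with a sequence and in 0 of 6 called platelet genes. In the same 198 promoters the ETS-type letters CCGGAAG were rarer (4.04%, against 21%). The PU.1-type letters GAGGAAG were in 20.7%, against 13.8%. What these shares reflect was not tested. The 10 motifs searched were chosen after the values were seen.

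Regulators of G1 moved singly. Cdk6, the G1 kinase whose level sets how fast HSC leave quiescence, rose by 1.12 ± 0.28 (adjusted p = 0.020), a call lost without any one HSC library or MPP4 control 3. Cdkn1c and Cdk6 were the 2 that passed among 23 tested G1 genes (5 rose and 2 fell with the block; 2 rose without the pair). Mycn fell by 1.92 ± 0.27 (adjusted p = 0.0004), with 126.8, 229 and 202 CPM in HSC and 49.99, 62.2, 52.5 and 29.9 in MPP4. Mycl, its relative known from dendritic cells, had no count in HSC and 58 in MPP4, at least 7.71-fold higher against a floor of 3 counts over the HSC group. The call of Mycl was lost without HSC control 2. No other of the 45 Myc family and ribosome biogenesis genes passed, and the list's median was 0.05.

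Housekeeping lists gave few calls. edgeR called 1 of 76 nuclear genes of the respiratory chain (Ndufa4, higher), 1 of 33 of glycolysis and hypoxia (Slc2a3, lower), and 0 of 79 ribosomal protein, 40 heat shock, 33 proteasome and 7 mitochondrially encoded genes. At an unadjusted p under 0.05 there were 1, 1, 0 and 1 of them. DESeq2 called 0 in these 4 lists. edgeR with the block called 0 in the first 3 and 1 mitochondrial gene, lower. Medians of these lists lay between -0.25 and 0.11. Of 55 interferon response genes, Tlr7 and Ifnar2 rose and Ifitm1 fell (5 rose and 5 fell with the block). Without the pair that stood apart 4 rose. None rose without HSC control 2, MPP4 control 1 or MPP4 control 3, and 1 did without HSC control 3. Ifitm1, a membrane protein of HSC, was abundant in HSC at 904, 860 and 409 CPM and had 335, 217, 214 and 161 in MPP4 (log2 -1.67 ± 0.30, adjusted p = 0.0021).

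Immediate-early and stress genes, which also respond to cell handling, fell in 6 of 31 cases and rose in none (10 and 2 with the block; 1 fell without HSC control 2 and 3 without HSC control 1, HSC control 3 or MPP4 control 1; 1 rose without the pair; median -0.33). Ppp1r15a, the phosphatase subunit GADD34, fell by 2.23 ± 0.27 (adjusted p = 0.00012), from 199, 152 and 225 CPM to 38.0, 37.0, 41.3 and 59.8 CPM. Egr1, an immediate-early factor also known to hold HSC in quiescence, fell by 2.11 ± 0.42 (adjusted p = 0.0065), a call lost without HSC control 2. A part of sorting time or handling was not tested.

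The gene altered in the mutant mice, Dnmt1, had 98.8, 216 and 270 CPM in control HSC and 249, 341, 354 and 374 in control MPP4. The difference of 0.73 ± 0.31 did not pass (adjusted p = 0.22) and did with the ID block (0.82, adjusted p = 0.00079). Of 21 DNA methylation genes, Zbtb4, a reader of methylated DNA, fell and none rose; 4 rose with the block. Of 41 Polycomb and histone methylation genes, Ezh2, the H3K27 methyltransferase, rose by 1.18 ± 0.32 (adjusted p = 0.032) and the Polycomb subunit gene Cbx7 fell by 1.37 ± 0.36 (adjusted p = 0.029). Ezh2 lost its call without any one HSC library, MPP4 control 3 or MPP4 control 4. Cbx7 lost it without HSC control 1 or 2 or MPP4 control 1 or 2, and neither passed without the pair that stood apart. Zbtb4 lost its call without HSC control 1, HSC control 2 or MPP4 control 1.

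Receptors for homing and for cytokines changed in both directions. Of 28 homing and adhesion genes, 5 rose (among them Itgal, Itgb2, Ccr2 and Ccr9) and 5 fell (Esam, Itga2b, Itga6, Itgb3, Jam3). With the block it was 11 and 7. Ccr2 lost its call without any one HSC library and without the pair that stood apart (adjusted p = 0.10). Of 37 cytokine and growth factor receptors, 6 rose (Flt3, Il7r, Csf1r, Il1r1, Il10ra, Ifnar2) and 5 fell (among them Tie1, Tek, Epor and Igf1r), and 10 and 7 did with the block. Without HSC control 2 these counts were 2 and 2 for homing and 3 and 2 for receptors. Without HSC control 3 they were 2 and 3, and 5 and 3. The receptors that rose also numbered 3 without MPP4 control 1 and 3 without MPP4 control 3. In the lists of apoptosis, p53, and Notch and Wnt genes, Bcl2, Xpc and Notch1 were the single calls, each higher. Bcl2, which protects cells from death, rose by 1.25 ± 0.30 (adjusted p = 0.017), a call lost without HSC control 1, HSC control 3 or MPP4 control 2. Its adjusted p was 0.054 without the pair, 0.054 over all 18 libraries with the ID block and 0.23 in batch C alone. Xpc was lost without HSC control 2 or 3 or MPP4 control 2 or 3, while Notch1 passed without any one library. Without the pair 2 p53 genes rose and 1 Notch and Wnt gene fell. Of 25 TGF-beta and BMP genes, Id2 rose and Tgfbr3 and Ski fell, the last 2 not without HSC control 2. Of 52 lysosome and autophagy genes, Cd63, Map1lc3a and Gabarapl1 fell (12 fell and 1 rose with the block). Only 1 gene fell without HSC control 1, 2 or 3, without MPP4 control 3 and without the pair, and in the last fit 1 rose. Map1lc3a did not pass with the block (adjusted p = 0.056).

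The MPP1 control libraries took no part in the choice of the 620 genes. For each gene, the distance from HSC to MPP4 in mean log2 CPM was set to 1, and the position of MPP1 was read on it as a fraction. The median position was 0.33 for the 342 genes that rose and 0.16 for the 278 that fell. MPP1 lay nearer to HSC for 222 and 243 of them. In the 2 MPP1 libraries taken singly the medians were 0.34 and 0.33 for higher genes and 0.11 and 0.21 for lower genes. Slc18a2 (210 and 241 CPM) and Grb10 (121 and 145 CPM) were in the HSC range or just below it, and Satb1 (43.1 and 47.2 CPM) was within it. Tyrobp (25.3 and 59.9 CPM), Ncf1 (31.2 and 81.7 CPM) and Mki67 (212 and 368 CPM) were above every HSC library. The higher value of each is that of MPP1 control 2, which held 31592 CPM of erythrocyte and 8970 CPM of neutrophil markers, against 886 and 1592 in MPP1 control 1. The part of such cells in these values was not tested. Trib2 was at 1.49 and 5.44 CPM, below every HSC library. These positions are a description without a test, and the MPP1 libraries share their ID numbers with HSC controls 2 and 3.

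The mutant marrow gave the same contrast in 3 HSC and 4 MPP4 libraries that the control comparison did not use. There, 299 of 9423 tested genes passed (3.17%), 188 higher (2%) and the rest lower (1.18%). Of the 620 control genes, 548 were tested in the mutant libraries, and 545 (99.5%) had the same sign, against 68.7% of all 9254 genes tested in both. Of these, 211 also passed there. Median differences of the control genes that rose were 1.70 in control and 1.49 in mutant libraries, and those of the genes that fell were -1.71 and -1.60. Values in the control libraries are those the genes were chosen by. Flt3 had 4.29, Satb1 3.30, Irf8 6.02 and Dntt 8.26 in the mutant libraries, and Gata2 -3.20, Slc18a2 -6.22 and Grb10 -5.27. All 7 passed there. H2-Aa (4.04) passed as well, while Mki67 (1.31) did not (edgeR adjusted p = 0.14). Mutant libraries also held transcripts of other cells: erythrocyte markers summed to 233930 CPM in MPP4 mutant 2 and 13020 in HSC mutant 1 (423 to 893 in the other 5), and B cell markers to 12409 in MPP4 mutant 3 (32.7 to 737 in the other 6). MPP4 mutant 2 also held 41432 CPM of neutrophil markers. Without these 3 libraries 681 of 9733 genes passed, 317 higher and 364 lower. Of the 564 control genes tested then, 561 (99.5%) had the same sign, against 69.6% of 9455 genes. Flt3 was then at 4.95, Satb1 3.24, Irf8 5.43, Dntt 9.58, Gata2 -3.42, Slc18a2 -6.97 and Grb10 -5.51, and all 7 passed. H2-Aa (3.58) passed again, and Mki67 (0.82) again did not (edgeR adjusted p = 0.36). In the S phase list edgeR called 0 of 65 genes in the mutant libraries, with 9 at an unadjusted p under 0.05 and a median of 0.49. DESeq2 called 0 there, and edgeR with the ID block 8. Without the 3 libraries edgeR called 4, all higher. The mitosis list had 14 calls (23 without the 3), all higher, with a median of 1.13. MHC class II genes had 7 calls (7 without the 3), all higher, with a median of 4.07.

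The test of whether the MPP4 minus HSC difference changed with genotype, over the 14 HSC and MPP4 libraries, called 0 of 10537 genes with edgeR. DESeq2 and edgeR with the ID block called 0 as well, as did edgeR without the 5 control and mutant libraries that stood apart, and 1.21% of the genes had an unadjusted p under 0.05. A difference between genotypes in this contrast was therefore not detectable in these libraries, which does not show that there was none.

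**Figure D4:**
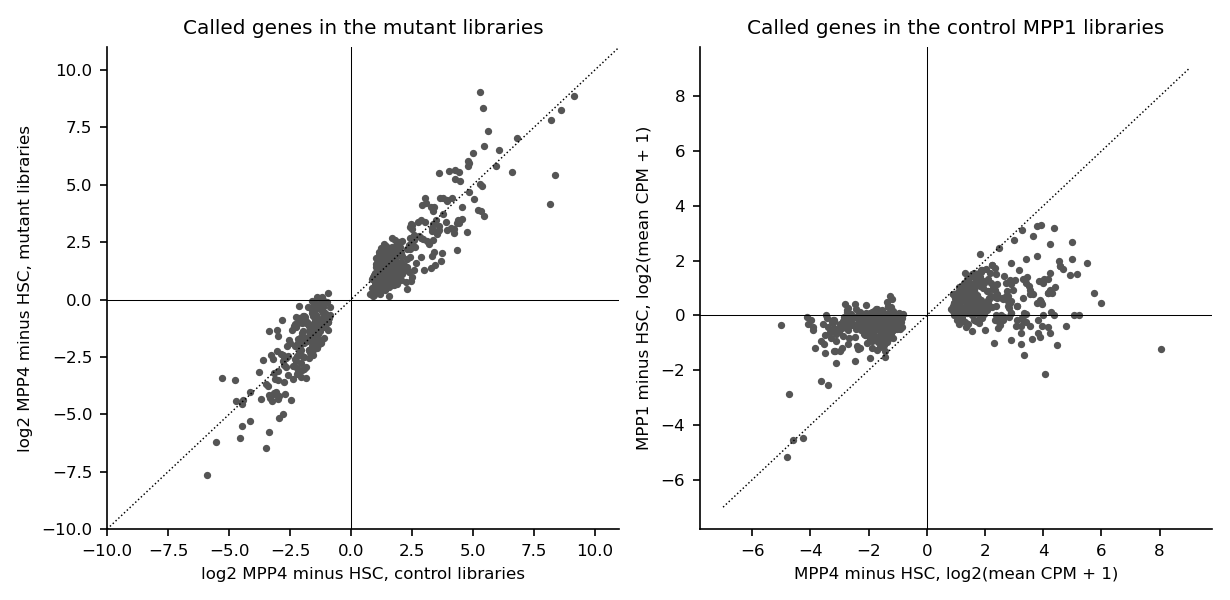
Left, the log2 difference (MPP4 minus HSC) of the called genes in control libraries (x) and mutant libraries (y), one point per gene; 545 of 548 genes have the same sign. Right, the difference of MPP4 (x) and of MPP1 (y) from HSC in control libraries, in log2(mean CPM + 1); dotted lines mark equal differences, and most points lie nearer to the line at 0 than to the dotted line.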

How the data were processed

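Per the labels, sorted cells were lysed without RNA extraction and made into CEL-Seq2 libraries. The deposited values are estimated counts per gene and library: whole numbers corrected by the authors for barcode collisions, since 100% of the high values below the maximum lie on the grid that 4096 barcodes give. Very high genes are capped, which touched at most 2 genes in a library. The build is mm10, and R 3.4.0 and DESeq2 are named per the submitters' processing notes. No aligner, counter or annotation is named in the labels or headers. Use of strand is not stated, so overlapping and antisense genes cannot be told apart, and near-identical copies may share reads.

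Control HSC and MPP4 columns were joined by row name. The test was edgeR 4.0.16 (R 4.3.3): TMM scaling, the default low-count filter (minimum count 10), robust quasi-likelihood fit, population as the one factor, Benjamini-Hochberg adjustment over all tested genes, threshold 0.05 and a prior count of 2. Libraries labelled as replicates are not stated to be separate animals, so p-values measure only the spread between these libraries. Total counts, which limit the precision of low genes, were 354642 to 1943562. No 2 libraries agreed within sampling noise. Same-numbered HSC and MPP4 libraries deviated together from their group means (r = 0.406, 0.267 and 0.134 for the pairs of HSC controls 1, 2 and 3), each over the 0.1 set for pairing, so the number was taken to pair them. HSC control 3 correlated more with MPP4 control 3, of another number (r = 0.173). HSC control 1 and MPP4 control 2, also of unlike number, reached r = 0.102, so the threshold alone does not single out same-numbered libraries. The pair at 0.406 is the only one of batch A, so number and batch cannot be told apart there. The pairing comes from the column headers. The fit with the number as a block is given where it changes a call or count.

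The genes named are 20 fixed ones, then in each direction the 15 smallest adjusted p-values also passing with the block and with one sign in 3 ID numbers, and up to 6 such genes per list, or any called gene of a list with 5 or fewer. This gave 136 genes, 129 of them called. Other named genes were chosen after their values were seen. The comparison and all lists were chosen with earlier results of these data known. The test was tried on simulated counts. Alternatives were other scaling, filters, DESeq2 1.42.0, batch or block terms, batch C alone, all 18 libraries, each library left out and, chosen after seeing the data, HSC control 1 and MPP4 control 4 both left out, and likewise HSC mutant 1 and MPP4 mutants 2 and 3. Gene positions are GENCODE M21 (GRCm38), and promoters RefSeq on GRCm38.p6, with 7637 of 10037 tested genes matched. Some genes of the lists are counted but not reported by name here.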

Additional observations from a re-analysis of the deposited data

Results flagged for a closer look

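In groups of 4 libraries, a value was singled out when its gap to the nearest other value exceeded Dixon's 95% critical share of the group's range. With normally distributed values, chance gives that in about 1 in 20 groups. The rule is always met where all libraries but 1 are at 0, as for Trib2 and Epor. Among as many genes as are named here, some values would meet the rule by chance. The values that met it, all among the MPP4 controls, are given here without an explanation. Ly6a reached 168 CPM in MPP4 control 2, and Bex6 75.3 CPM and H2-Ob 32.3 CPM in the same library. Trib2 was at 0.936 CPM there, which is 2 counts, with 0 in the other MPP4 controls. MPP4 control 1 was high for Elane (49.4 CPM) and Wfdc17 (165 CPM). MPP4 control 4 was high for Slc18a2 (14.9 CPM), Irf8 (557 CPM) and Mfsd2b (7.47 CPM). Epor was at 1.59 CPM in MPP4 control 3 and at 0 in the other MPP4 controls. The differences from HSC of Irf8, Slc18a2, Trib2, Wfdc17 and H2-Ob passed in each fit that left out 1 library. That of Epor was lost without HSC control 1, and that of Mfsd2b without HSC control 2 and with DESeq2 (adjusted p = 0.12). Bex6 lost its call without HSC control 1 or 2, without MPP4 control 4 and without the pair of libraries that stood apart. Ly6a and Elane did not pass.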

How the results depend on the processing

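With DESeq2's size factors 618 genes passed in the control comparison, without a filter 842, with DESeq2 807, with batch as a term 816 and without the pair of libraries that stood apart 609, all within 1.5 times of 620. With the ID number as a replicate block 1096 passed (646 higher, 450 lower), and over all 18 libraries with that block 1042 (618 and 424). Within batch C alone 364 passed (208 and 156), and batches A and B hold too few libraries for a test of their own. The stricter filter left 178 lower genes. Leaving out 1 library gave 268 to 656 genes, of which 141 to 339 were higher. The share of calls that were higher was then 51.7% to 57.9% (55.2% with all 7, 50.1% without the pair that stood apart). The lowest counts came without HSC control 2, with 268 calls of which 141 were higher and the rest lower, and 206 of the 620 passed in every one of these fits. In mutant libraries the 299 calls became 711 without a filter, 179 with the stricter one, 516 with DESeq2, 956 with the replicate block, 762 with batch as a term, 644 in batch C alone and 681 without the 3 mutant libraries that stood apart. They were 95 to 355 with 1 library left out (95 without HSC mutant 2, 116 without HSC mutant 3, 132 without MPP4 mutant 4). The population by genotype test called 1 gene without a filter and 0 in the other alternatives run. The cause of these shifts was not tested.

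Of the 129 named calls, 76 passed in each fit that left out 1 library. The one named gene whose sign turned was Ly6a, which did not pass in any of these: -0.38 with the replicate block, -0.36 with batch as a term, -0.10 in batch C alone, -0.38 over all 18 libraries and -0.33 without MPP4 control 2. Leaving out the other libraries in turn gave up to 0.80.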

Other observations

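Several called genes belong to no list above and were chosen after their values were seen. A pair of immunoglobulin heavy chain variable segments on chromosome 12, Ighv1-78 and Ighv1-85, had no count in any HSC control. Ighv1-78 was at 43.7, 42.1, 29.4 and 14.9 CPM in MPP4, at least 26.6-fold higher against a floor of 3 counts over the HSC group (edgeR adjusted p = 0.00021). Ighv1-85 was at 92.4, 102, 27.0 and 29.9 CPM, at least 54.0-fold higher (adjusted p = 0.0021). In MPP1 they had at most 0.743 CPM. HSC control 1, which held the B cell transcripts, had no count of either. Both also passed in the mutant libraries (log2 7.82 and 8.86, adjusted p = 0.0061 and 0.0036). Ptger2, a receptor of prostaglandin E2, and Chl1, a neural cell adhesion molecule, had no count in HSC and 87 and 98 counts in MPP4 (at least 11.6-fold and 13.03-fold higher). Gria2, a glutamate receptor subunit, had 3 counts in HSC and 265 in MPP4, a ratio of 35.2 (95% exact interval 11.9 to 172).

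The metallothionein genes Mt1 and Mt2, whose products bind zinc and copper, passed as lower. Mt1 was at 170, 31.7 and 36.7 CPM in HSC and 10.1, 10.3, 4.77 and 7.47 in MPP4 (log2 -3.25 ± 0.60, adjusted p = 0.0077), a call lost without MPP4 control 2. Mt2 had 66 counts in HSC and 2 in MPP4, a ratio of 82.7 (interval 22.02 to 698). Mt2 was at 0 in both MPP1 controls, and Mt1 was there at 26.7 and 19.96 CPM. Hspb8, a small heat shock protein gene, had 27 counts in HSC and none in any MPP4 control, at least 22.6-fold lower. Bgn, the proteoglycan biglycan, fell by 4.45 ± 0.55 and Emilin2 by 3.05 ± 0.41 (adjusted p = 0.00012 and 0.00028), and Col4a2, a chain of collagen IV, by 1.81 ± 0.36 (adjusted p = 0.0048). Col4a1, another chain of collagen IV, fell by 1.29 ± 0.34 (adjusted p = 0.031), a call lost without HSC control 2 or 3, without MPP4 control 2 or 3, with batch as a term and in batch C alone. Kmo, an enzyme of tryptophan breakdown, had no count in HSC and 53 in MPP4, at least 7.05-fold higher. Ncf4, a further subunit of the NADPH oxidase, rose by 2.31 ± 0.43 (adjusted p = 0.0029).

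MPP4 control 2, the library with the high Ly6a, was also the highest in Ly6e, a gene of the same family: 938 CPM, against 271, 398 and 202 in the other MPP4 controls and 405, 251 and 186 in HSC. Ly6e did not pass (log2 0.65 ± 0.48, adjusted p = 0.62).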
